A study of Mus musculus with 6 samples.

Results

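Tight junctions close the space between neighbouring epithelial cells near their apical surface, and the apical polarity proteins set where that surface ends. The genes examined here were all symbols in the deposited tables that name a claudin, occludin, tricellulin (Marveld2) or Marveld3, a junctional adhesion molecule (F11r, Jam2, Jam3), a zonula occludens or cingulin scaffold (such as Tjp1, Tjp3, Cgn and Cgnl1), a Crumbs protein (Crb1 to Crb3) or a PAR scaffold (Pard3, Pard6a, Pard6b, Pard6g). The choice matched symbols only, but it was made with earlier results of these data known. It gave 43 of 23420 genes, of which 28 had enough counts to be tested and 15 did not.

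The study compared the lacrimal gland bud of mouse embryos at E14.5, the stage at which the bud grows from the conjunctival epithelium into the mesenchyme around the eye. Control embryos carried the Le-Cre transgene, which expresses Cre recombinase in the conjunctival and lacrimal gland epithelium. Pea3 TKO embryos carried Le-Cre as well, together with Pea3-/-, Erm fl/fl and Er81 fl/fl. By genotype the Pea3 (Etv4) allele was disrupted throughout the embryo, while Erm (Etv5) and Er81 (Etv1) were targeted where Cre was active. Both groups were kept on a mixed background, with n = 3 samples each. The buds were cut out by laser capture and the RNA was amplified before sequencing, and the labels do not say how many embryos or sections made up a sample, so p-values measure the spread between these samples only. The comparison asks how junction and polarity transcripts differ when the Pea3 family, the ETS transcription factors downstream of FGF signalling, is removed.

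Total counts ran from 14194775 to 17860140 per sample. Levels are given as CPM, the usual count relative to library size, after TMM normalization, and 3 counts corresponded to 0.169 to 0.210 CPM. Etv4, Etv5 and Etv1 were lower in every Pea3 TKO sample than in every control, and Etv4 remained at 10.9, 19.1 and 28.4 CPM in Pea3 TKO against 184, 129 and 140 CPM in controls. Counts of Y-linked genes were 2177 to 3099 in the controls and 2366 in Pea3 TKO 3, against 7 and 3 in Pea3 TKO 1 and 2, whose Xist counts were 1675 and 465. Pea3 TKO 1 and 2 were thus female and the other 4 samples male, so genotype and sex were partly confounded. Mesenchyme marker genes (12 genes, of which Fgf10 was at 0 in all Pea3 TKO samples) summed to 21.9, 33.9 and 137 CPM in controls 1 to 3, to 421 and 587 CPM in Pea3 TKO 1 and 2, and to 15.5 CPM in Pea3 TKO 3. The general epithelial marker Epcam did not pass the test (log2 fold change -0.17 ± 0.11 SE, edgeR quasi-likelihood test with Benjamini-Hochberg adjustment, adjusted p = 0.311), whereas Cdh1, which encodes E-cadherin, rose (1.09 ± 0.12, adjusted p = 0.000415). Of the 6 epithelial markers tested 5 rose, all but Epcam, where 13.6% of all tested genes rose. Their median log2 fold change was 1.10. They summed to 2810 to 3514 CPM in controls and 5027 to 5876 CPM in Pea3 TKO. In such bulk samples a change in the number of cells of one type cannot be told apart from a change in RNA per cell.

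A claudin spans the membrane with short loops outside the cell, and claudins of facing cells join into strands that seal the gap or, for some of them, form ion channels through it. Occludin and tricellulin lie in the same strands, tricellulin mainly where cells meet at a corner. Zonula occludens proteins such as ZO-1 and ZO-3 tie the strands to actin. The Crumbs complex (Crumbs, Pals1, Patj) and the PAR complex (Par3, Par6, atypical protein kinase C) mark the apical side, opposed by the Scribble group and the Par1 kinases below. In surface epithelia that stratify, the composition of the claudins changes as layers form.

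Of the 28 tested genes 14 rose in Pea3 TKO, or 50.0%, where 13.6% of all 13087 tested genes rose. The 3 that fell were Cldn10, Jam3 and Crb2, or 10.7%, against 11.3% of all genes. Crb2 entered the test only through the controls, where its counts were high, and without it 2 of 27 fell, or 7.41%. All 14 genes that rose were above the low-count cutoff in all 6 samples. The median log2 fold change was 0.56 over the 28 genes and 0.01 over all tested genes. In 16 of the 28 genes, or 57.1%, every Pea3 TKO sample lay above every control, against 22.5% of all tested genes. In 3 genes every Pea3 TKO sample lay below every control, where 21.3% of all tested genes did so. The rise ran from 1.37-fold for F11r to 3.33-fold for Cldn4, and 7 genes rose at least 2-fold.

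**Figure D1:**
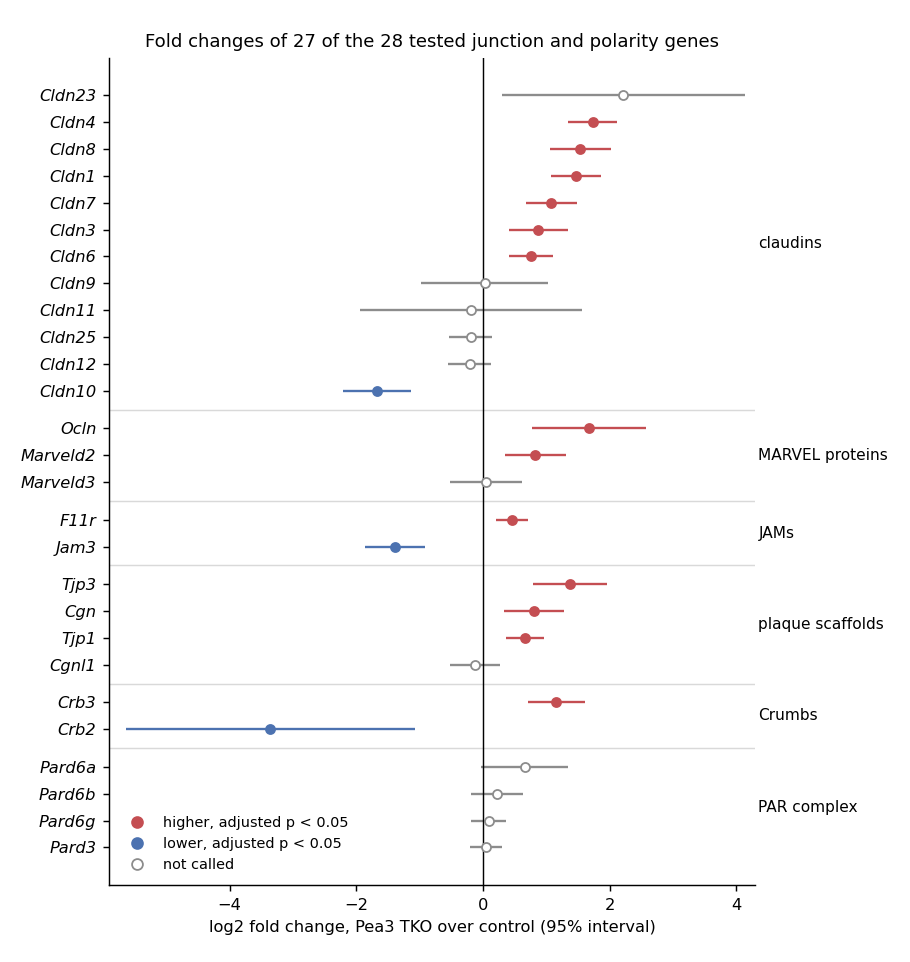
Log2 fold change of Pea3 TKO over control (x axis) for 27 of the 28 tested genes, grouped by role, with 95% intervals from the edgeR fit as horizontal lines. Filled red points rose, filled blue points fell and open grey points did not pass an adjusted p of 0.05. All 4 PAR complex genes are open, while 3 of the 4 plaque scaffolds shown and 6 of 12 claudins are red.

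Fewer of these genes passed when sex was taken into account. Over all tested genes, calls went from 3268 to 798 with the level of Y-linked genes as a covariate. With the level of Y-linked genes as a covariate, 5 of the 28 genes rose (Cldn4, Cldn1, Cldn8, Crb3 and Tjp1) and 0 fell, where 3.85% and 2.25% of all tested genes did. With the male samples alone, 3 controls and Pea3 TKO 3, Cldn4 and Cldn1 rose and 0 fell, against 2.28% and 2.04% of 13816 tested genes; the single Pea3 TKO sample was then assumed to vary like the controls. All 17 called genes kept their direction in both settings, and the median over the 28 genes was 0.48 in each. Pea3 TKO 3, the male sample of its group, held less mesenchyme marker RNA than any control. Pea3 TKO 1 and 2, the female samples, held more than any control, so sex and mesenchyme RNA cannot be told apart here.

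**Figure D2:**
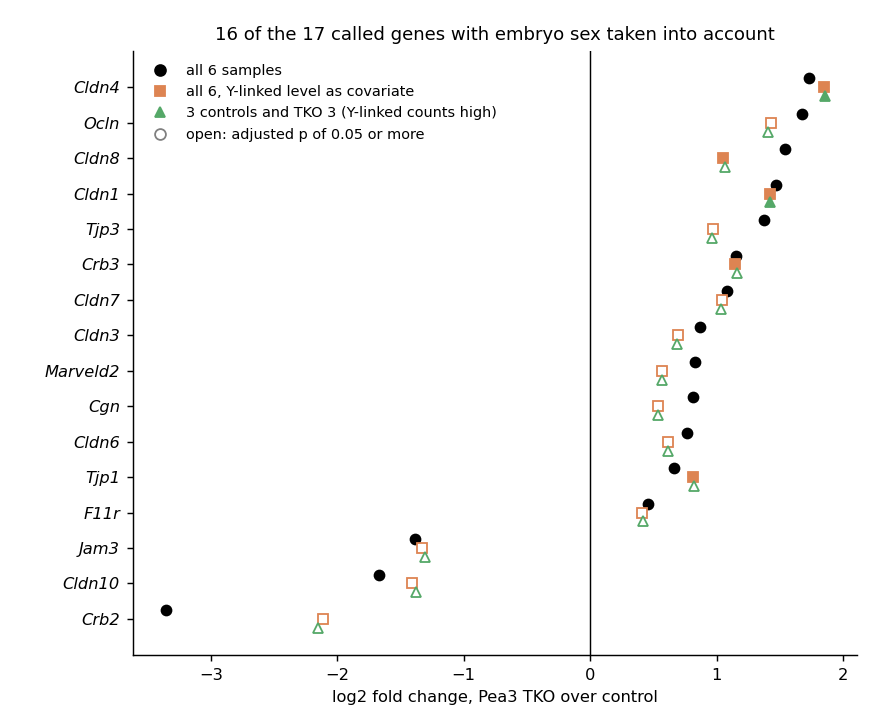
Log2 fold change (x axis) of 16 of the 17 called genes with all 6 samples (black circles), with the Y-linked level as a covariate (orange squares) and with the 3 controls and Pea3 TKO 3 alone (green triangles). Filled symbols passed an adjusted p of 0.05. Every gene shown stays on its side of 0, and Cldn4 and Cldn1 are filled in all 3 settings.

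The claudins present in the bud were few. Of 25 claudin genes 12 were tested, and 7 of the other 13 had no count in any sample. Per kilobase of exon, Cldn6, a claudin of embryonic epithelia, was the highest in both groups of the 42 genes with an annotated length. Its level was 223, 178 and 167 CPM per kb in controls 1 to 3 and 383, 293 and 287 in Pea3 TKO 1 to 3. Cldn3 came next in both groups, with 191, 148 and 122 CPM per kb in controls and 366, 231 and 246 in Pea3 TKO. These groups did not overlap for either gene. Within each group the ranges of Cldn6 and Cldn3 overlapped, but in every single sample Cldn6 was above Cldn3. F11r followed, at 86.7 to 100.2 CPM per kb in controls and 122 to 139 in Pea3 TKO.

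Cldn4, a sealing claudin of glandular and barrier epithelia, showed the largest called rise of the 43 genes. Its level was 50.3, 39.2 and 31.9 CPM in controls 1 to 3 and 126, 133 and 145 CPM in Pea3 TKO 1 to 3. The lowest Pea3 TKO value was thus well above the highest control. The log2 fold change was 1.73 ± 0.17 (adjusted p = 0.000218), and it stayed between 1.59 and 1.92 in all 13 alternative settings. Cldn8, which often accompanies Cldn4 in tight epithelia, had 87.7, 68.4 and 57.1 CPM in controls and 246.5, 226 and 148 CPM in Pea3 TKO. Its log2 fold change was 1.54 ± 0.21 (adjusted p = 0.00109), with the lowest Pea3 TKO value in the male sample. Cldn1, needed for the water barrier of the epidermis, measured 33.5, 26.8 and 24.6 CPM in controls. In Pea3 TKO it measured 92.8, 67.1 and 75.2 CPM, and its log2 fold change was 1.47 ± 0.18 (adjusted p = 0.000588).

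Cldn7, a widespread claudin of simple and stratified epithelia, had 132, 89.7 and 88.4 CPM in controls and 257, 191 and 210 CPM in Pea3 TKO (log2 fold change 1.08 ± 0.18, adjusted p = 0.00286). Its highest value was in Pea3 TKO 1, as it was for Cldn3, Cldn6, Cldn8 and Cldn1. Cldn3, a barrier claudin, rose from 241, 186 and 153 CPM to 461, 291 and 309 CPM (0.87 ± 0.21, adjusted p = 0.0147). Cldn6 rose from 383, 307 and 287 CPM to 659, 505 and 495 CPM (0.76 ± 0.16, adjusted p = 0.00716). For each of these 6 claudins the controls and Pea3 TKO samples did not overlap. Cldn3 lost its call without control 2 (0.84, adjusted p = 0.0595) or control 3 (0.72, adjusted p = 0.0565).

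Cldn10 was the only claudin that fell. Its protein forms ion channels rather than seals, and its splice forms differ in the charge they pass. The level was 85.1, 159 and 133 CPM in controls and 30.2, 40.1 and 48.0 CPM in Pea3 TKO (log2 fold change -1.67 ± 0.24, adjusted p = 0.00139). Every Pea3 TKO sample was below the lowest control, control 1. With the Y-linked covariate the value was -1.41 (adjusted p = 0.0549). Gene counts do not separate the splice forms, which start at different promoters. Within a library, the ratio of Cldn4 to Cldn10 counts was 0.592, 0.246 and 0.240 in controls and 4.17, 3.32 and 3.02 in Pea3 TKO. This ratio, chosen after the values were seen, does not depend on library scaling. The exact permutation test gave p = 0.1, the smallest that 3 samples against 3 allow. As Cldn4 rose and Cldn10 fell, each without overlap, the ratio had to separate the groups.

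Cldn23 had the largest fitted increase of the 28 genes but did not pass. Its level was 24.6 CPM in control 1, 2.31 in control 2 and 1.17 in control 3, and 60.5, 42.8 and 28.4 CPM in Pea3 TKO. All Pea3 TKO samples were above all controls, control 1 by the smallest margin. The log2 fold change was 2.22 ± 0.86 (95% interval 0.30 to 4.14, adjusted p = 0.0876). Without control 1 it was 4.65, with an adjusted p of 6.32e-05. Control 1 also had the highest summed level of 16 stratified epithelium markers among the controls, 1699 CPM against 636 and 583, below the 5586 to 7937 CPM of Pea3 TKO. The part of those cells in the Cldn23 result was not tested. Cldn12, Cldn25, Cldn9 and Cldn11 did not pass, with log2 fold changes from -0.21 to 0.03. Cldn12 measured 79.9 to 115 CPM in controls and 82.2 to 87.8 in Pea3 TKO, and Cldn11 at most 1.59 CPM in any sample. The symbol Cldn25 is shared as a synonym by 2 genes, Cldnd1 and Cldn25-ps, and by symbol alone the row cannot be assigned to one of them. No row carried the symbol Cldnd1 itself.

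**Figure D3:**
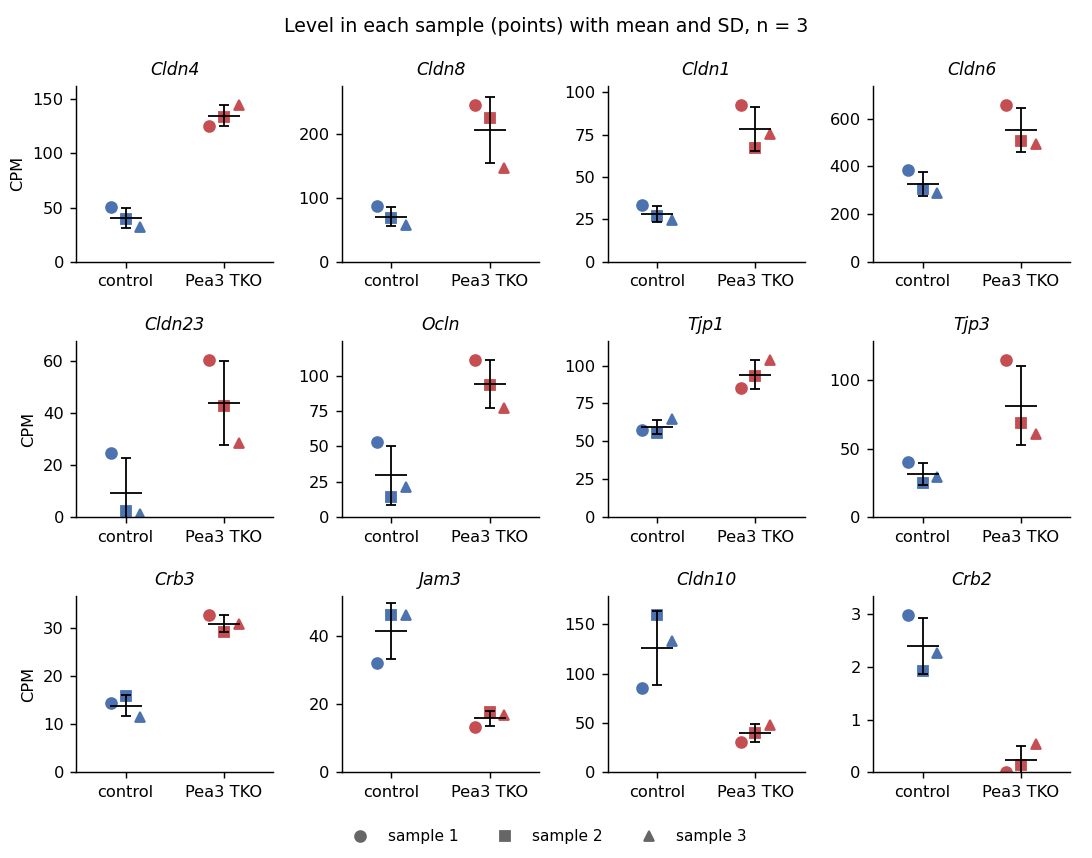
Level of 12 of the genes in CPM (y axis, from 0) in each control (blue) and Pea3 TKO (red) sample, with the symbol giving the sample number and the black line and bars the mean and SD of n = 3 (cut at 0). Cldn4 is at 31.9 to 50.3 CPM in controls and 126 to 145 in Pea3 TKO, and Cldn23 and Ocln are highest in control 1 among the controls.

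Summed per kilobase over the 24 claudins with an annotated length, claudin transcripts came to 629, 523 and 461 CPM per kb in controls 1 to 3 and 1145, 870 and 860 in Pea3 TKO 1 to 3. The mean was 538 ± 85.1 (SD, n = 3) in controls and 958 ± 162 in Pea3 TKO, 1.78-fold higher, without overlap (exact permutation test, two-sided p = 0.1). Cldn6 and Cldn3 together held 62.3% to 65.8% of it in controls and 60.3% to 65.4% in Pea3 TKO. The share of Cldn4 was 4.41%, 4.13% and 3.81% in controls and 6.05%, 8.44% and 9.29% in Pea3 TKO. Cldn4, Cldn8 and Cldn1 together were above their control shares of 10.2% to 11.4% in each Pea3 TKO sample, at 16.9% to 21.0%. These 3 had the largest called rises of the claudins, so a larger joint share follows from how they were picked. Cldn10 went the other way, with 5.22%, 11.7% and 11.1% in controls and 1.02%, 1.78% and 2.16% in Pea3 TKO. The exact permutation p was 0.1 for the Cldn4 share and 0.1 for the Cldn10 share, again the smallest value possible. In every Pea3 TKO sample the Cldn1, Cldn7 and Cldn8 shares lay above every control, and the Cldn6 and Cldn12 shares below. Each of these also gave an exact permutation p of 0.1. The shares of Cldn3 (exact permutation p = 0.7) and Cldn23 (exact permutation p = 0.2) overlapped between groups.

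**Figure D4:**
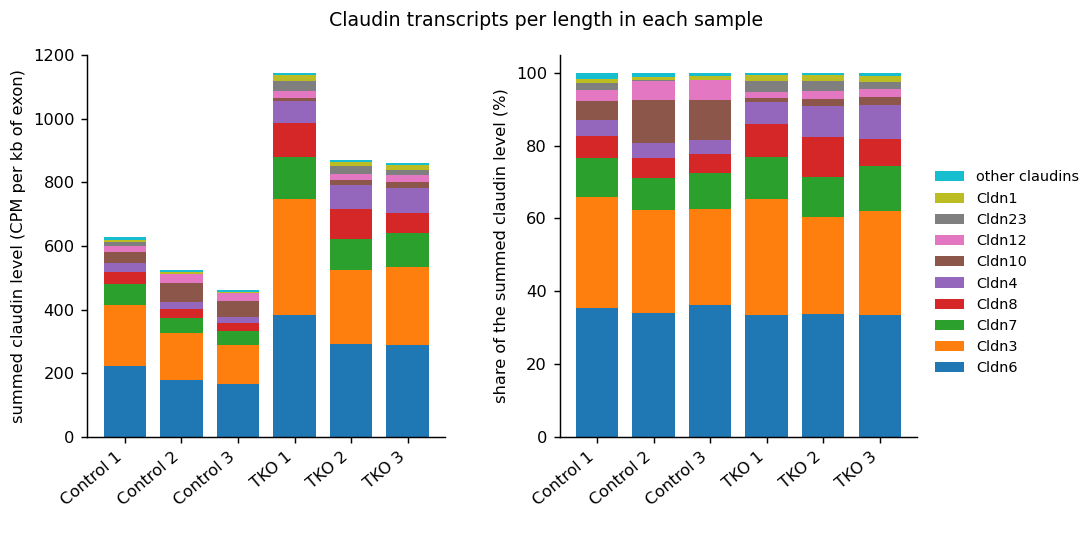
Left, summed level of 24 claudins in CPM per kb of exon (y axis) in each sample, stacked by gene. Right, the same as a share in percent. The total is 461 to 629 in controls and 860 to 1145 in Pea3 TKO, Cldn6 and Cldn3 hold over 60% of every bar, and the Cldn10 band is narrower in Pea3 TKO.

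Several claudins are neighbours in the genome. Cldn4 (chr5:134945119-134946934, minus strand) and Cldn3 (chr5:134986214-134987472, plus strand; GRCm38, GENCODE M21) lie 39.3 kb apart, and both rose. Cldn13, 29.6 kb from Cldn4 on the other side, had no count. Cldn6 and Cldn9 lie tail to tail on chromosome 17 with 137 bases between them. Cldn9 measured 13.5, 5.73 and 3.90 CPM in controls and 8.07, 6.99 and 8.58 in Pea3 TKO, within the control range (log2 fold change 0.03 ± 0.45, 95% interval -0.97 to 1.03, adjusted p = 0.971). The ratio of Cldn6 to Cldn9 counts was 28.4, 53.5 and 73.6 in controls and 81.7, 72.2 and 57.7 in Pea3 TKO, which overlapped (exact permutation p = 0.3). Cldn8, on chromosome 16, rose, while its neighbour Cldn17, 53.8 kb away, had 2 counts in 1 sample. Ocln and Marveld2, described below, lie 43.2 kb apart on chromosome 13 and both rose.

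The 250 bases before the transcription start are shown for the neighbours Cldn4 and Cldn3, for Cldn7, which also rose and holds the AGGAAG letters bound by PEA3 proteins, and for Cldn10, which fell (RefSeq, GRCm38.p6, 5′ to 3′ on the strand of the gene). For Cldn10 and Cldn7 the window is that of the upstream start, each having another start further into the gene. Capitals mark a match to AGGAAG, to the longer ETS motif CCGGAAGT, to the Grainyhead motif AACCNGGTT or to the E-box CAGGTG bound by Snail and Zeb proteins, on either strand.
Cldn4 (chr5:134946935-134947184, minus strand): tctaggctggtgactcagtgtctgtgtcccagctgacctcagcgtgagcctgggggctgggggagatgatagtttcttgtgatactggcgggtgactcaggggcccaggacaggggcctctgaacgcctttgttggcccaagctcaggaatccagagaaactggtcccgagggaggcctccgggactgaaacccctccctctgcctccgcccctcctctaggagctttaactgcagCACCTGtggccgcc
Cldn3 (chr5:134985964-134986213, plus strand): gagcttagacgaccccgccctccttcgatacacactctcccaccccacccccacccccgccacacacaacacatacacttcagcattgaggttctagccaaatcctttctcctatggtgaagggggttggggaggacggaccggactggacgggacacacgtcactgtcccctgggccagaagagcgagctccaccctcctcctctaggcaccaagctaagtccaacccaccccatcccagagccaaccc
Cldn7 (chr11:69964529-69964778, plus strand): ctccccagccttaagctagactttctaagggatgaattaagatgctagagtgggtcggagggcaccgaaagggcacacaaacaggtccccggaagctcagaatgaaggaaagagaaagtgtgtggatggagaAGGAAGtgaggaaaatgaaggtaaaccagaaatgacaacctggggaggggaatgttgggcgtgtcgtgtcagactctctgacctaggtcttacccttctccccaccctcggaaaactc
Cldn10 (chr14:118787621-118787870, plus strand): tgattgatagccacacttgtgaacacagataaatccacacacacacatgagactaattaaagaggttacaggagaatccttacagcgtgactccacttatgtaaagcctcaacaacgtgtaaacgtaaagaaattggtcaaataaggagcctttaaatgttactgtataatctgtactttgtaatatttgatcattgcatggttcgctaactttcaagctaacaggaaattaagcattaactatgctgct

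The Cldn4 window had 1 match, a CAGGTG on the opposite strand starting 14 bases before the transcription start. The Cldn7 window shown had an AGGAAG starting 118 bases before it, and the Cldn3 and Cldn10 windows had no match. The other Cldn7 window, not shown, had 2 AGGAAG, 1 CCGGAAGT and 2 CAGGTG. RefSeq promoters were found for 32 of the 43 genes, in 46 windows. AGGAAG stood in 13 of these windows, where 29.5% of all 32851 promoter windows hold it. CAGGTG stood in 12, against 17.2% of all windows. CCGGAAGT stood in 2, one each of Cldn7 and Crb3, against 2.88%. AACCNGGTT stood in 0, against 0.24%. The windows of a gene with several starts overlap in part, and a match is a run of letters and not a shown site of binding. AGGAAG and CCGGAAGT cannot be matched by the same bases on 1 strand.

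Among the MARVEL proteins, occludin and tricellulin rose. Ocln (chr13:100496507-100552718) measured 52.9 CPM in control 1 and 14.2 and 21.3 CPM in controls 2 and 3. In Pea3 TKO it measured 111, 93.3 and 77.4 CPM, all above control 1. The log2 fold change was 1.67 ± 0.40 (adjusted p = 0.0150), and 2.41 without control 1. It missed the threshold without control 3 (1.48, adjusted p = 0.0553) or Pea3 TKO 1 (1.53, adjusted p = 0.0575). Marveld2 (chr13:100595957-100616971) had 77.3, 44.0 and 59.6 CPM in controls and 131, 101 and 88.4 CPM in Pea3 TKO (0.83 ± 0.22, adjusted p = 0.0215). Its call was lost without control 2, control 3, Pea3 TKO 1 or Pea3 TKO 2, with values from 0.64 to 0.87 and adjusted p from 0.0506 to 0.082. Ocln moved more than its neighbour. The ratio of Ocln to Marveld2 counts was 0.685, 0.322 and 0.357 in controls and 0.847, 0.922 and 0.875 in Pea3 TKO (exact permutation p = 0.1, the smallest possible). Marveld3, the third member of the family, measured 21.7 to 33.6 CPM and 22.0 to 38.0 CPM, with a log2 fold change of 0.05 (95% interval -0.52 to 0.62, adjusted p = 0.907).

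The junctional adhesion molecules moved in opposite directions. F11r, which encodes JAM-A and recruits polarity proteins to young junctions, had 267, 249 and 231 CPM in controls and 370, 326 and 329 CPM in Pea3 TKO. The rise was small and without overlap (log2 fold change 0.46 ± 0.11, adjusted p = 0.0170), and its call was lost without control 2 (0.46, adjusted p = 0.064) or control 3 (0.40, adjusted p = 0.0808). Jam3, which encodes JAM-C and is found in epithelium, endothelium and germ cells, fell from 31.9, 46.0 and 46.0 CPM to 13.3, 17.6 and 16.6 CPM (-1.38 ± 0.21, adjusted p = 0.00180). Of the exonic bases of Jam3 (chr9:27097384-27155421) 36.2% are shared with Gm48796 on the other strand, and without a stated strand setting reads of these genes cannot be told apart. Endothelial markers summed to 29.1 to 42.1 CPM in controls and 23.4 to 38.5 CPM in Pea3 TKO, with 5 to 7 of 11 at 0 in each sample. Most of this sum was Egfl7 alone, at 31.1, 29.2 and 24.25 CPM in controls and 16.7, 23.9 and 20.1 CPM in Pea3 TKO. Cldn5, the main claudin of endothelium, was at 0 in 5 of 6 samples. The part of endothelial cells in the Jam3 result was not tested. Jam2 had at most 8 counts and was not tested. The ratio of F11r to Jam3 counts was 8.38, 5.42 and 5.01 in controls and 27.7, 18.6 and 19.8 in Pea3 TKO. As F11r rose and Jam3 fell, each without overlap, this ratio had to separate the groups and is no further support.

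Of the plaque scaffolds below the membrane Tjp3, Tjp1 and Cgn rose, and Cgnl1 did not pass. Tjp3, which encodes ZO-3 and is restricted to epithelia, measured 40.1, 24.9 and 29.1 CPM in controls and 115, 68.8 and 60.8 CPM in Pea3 TKO (log2 fold change 1.37 ± 0.26, adjusted p = 0.00527). Tjp1, the ubiquitous ZO-1, had 57.6, 55.7 and 64.6 CPM and 85.0, 93.2 and 104 CPM (0.66 ± 0.13, adjusted p = 0.00688). Its highest value was in Pea3 TKO 3, unlike Tjp3, which was highest in Pea3 TKO 1. Cingulin, a ZO-1 partner that links the junction to microtubules, rose from 36.6, 30.5 and 28.5 CPM to 74.9, 47.1 and 45.8 CPM (Cgn, 0.81 ± 0.21, adjusted p = 0.0219). Its relative Cgnl1, also named paracingulin, overlapped between groups at 73.8 to 95.1 and 64.6 to 97.6 CPM (-0.13, 95% interval -0.52 to 0.26, adjusted p = 0.631). Cgn lost its call without control 2 (0.78, adjusted p = 0.0764), control 3 (0.73, adjusted p = 0.0773) or Pea3 TKO 1 (0.54, adjusted p = 0.0662).

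Of the Crumbs genes, Crb3, the form of ordinary epithelia, rose and Crb2 fell. Crb3 measured 14.3, 15.7 and 11.4 CPM in controls and 32.6, 29.2 and 30.7 CPM in Pea3 TKO (log2 fold change 1.16 ± 0.20, adjusted p = 0.00343). The Pea3 TKO values lay close together, and the lowest was above the highest control. Crb2 had 53, 31 and 35 counts in controls and 0, 2 and 9 in Pea3 TKO, or 2.99, 1.93 and 2.28 CPM against 0, 0.140 and 0.529. Its fitted log2 fold change was -3.36 ± 1.02 (adjusted p = 0.0382) and lost the threshold in 8 of 13 alternative settings, among them each left-out sample except Pea3 TKO 3 (-3.50 to -2.79, adjusted p from 0.0695 to 0.131). Crb1, known from the retina, had no count in any sample. Lens and retina markers summed to 148 to 880 CPM in controls, highest in control 2, and 137 to 256 CPM in Pea3 TKO.

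The PAR scaffolds showed no called change. Pard6g, the highest of them per kilobase, had 174, 182 and 163 CPM in controls and 167, 209 and 177 CPM in Pea3 TKO, with overlapping groups. Its log2 fold change was 0.09 (95% interval -0.18 to 0.36, adjusted p = 0.625). Pard3, which brings the complex to the junction, measured 171, 167 and 149 CPM and 177, 171 and 156 CPM (0.05, 95% interval -0.20 to 0.31, adjusted p = 0.779). Pard6b had a log2 fold change of 0.23 (interval -0.19 to 0.64, adjusted p = 0.413). Pard6a was above every control in all Pea3 TKO samples, at 9.70, 8.66 and 5.33 CPM in controls and 11.2 to 14.2 CPM in Pea3 TKO, but did not pass (0.66 ± 0.31, interval -0.03 to 1.35, adjusted p = 0.149).

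The remaining 15 genes were below the filter of 0.628 CPM in 3 samples. No count was seen for Crb1, Cldn13, Cldn14, Cldn16, Cldn18, Cldn19, Cldn24 and Cldn26 (a synonym of Tmem114), which allows levels of up to 0.169 to 0.210 CPM, depending on the sample, for counting error only. Cldn16 and Cldn19 are kidney claudins and Cldn18 is one of stomach and lung. Cldn5, Cldn15, Cldn17, Cldn20, Cldn22 and Jam2 had at most 8 counts in any sample. All exonic bases of Cldn22 lie within Wwc2 on the other strand. Cldn2, a pore-forming claudin of leaky epithelia, had 25 counts in Pea3 TKO 1 and 0 in the other 5 samples.

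The partners of these proteins were examined as lists of genes. Of 14 tested apical polarity partners 4 rose and 0 fell, where 13.6% and 11.3% of all tested genes did. Patj, listed as Inadl, the scaffold that joins Crumbs and claudin complexes, rose by a log2 fold change of 0.82 ± 0.15 (adjusted p = 0.00454). Its level was 48.4, 57.7 and 65.9 CPM in controls and 92.5, 113 and 98.0 CPM in Pea3 TKO. Ezrin (Ezr), which anchors the apical membrane to actin, rose by 0.60 ± 0.12 (adjusted p = 0.00813). Angiomotin (Amot), which binds Patj, rose by 1.70 ± 0.39 (adjusted p = 0.0122). Cdc42, the GTPase that activates the Par6 complex, passed narrowly (0.35 ± 0.12, adjusted p = 0.0498). Pals1 (Mpp5) had a log2 fold change of 0.12 (adjusted p = 0.591). The kinases of the PAR complex did not pass either, Prkci at 0.27 (adjusted p = 0.265) and Prkcz at 0.49 (adjusted p = 0.316).

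Of 13 basolateral polarity genes 2 rose and 2 fell, near the 13.6% and 11.3% of all tested genes. Among the Par1 kinases Mark2 rose by 0.45 ± 0.13 (adjusted p = 0.0326), and Mark1 (-1.31 ± 0.26, adjusted p = 0.00598) and Mark3 (-0.52 ± 0.11, adjusted p = 0.00694) fell. Cab39, a partner of the kinase Lkb1, rose by 0.53 ± 0.16 (adjusted p = 0.0345). Scrib (-0.25, adjusted p = 0.218) and Llgl2 (0.40, adjusted p = 0.142) did not pass. Of 10 other junction membrane proteins 4 rose and 0 fell. They were Marveld1 and 3 nectins, which start cell contacts at the adherens junction: Nectin3 (Pvrl3, 0.90 ± 0.17, adjusted p = 0.00458), Nectin1 (Pvrl1, 1.04 ± 0.24, adjusted p = 0.0128) and Nectin4 (Pvrl4, 1.72 ± 0.45, adjusted p = 0.0206). Lsr, or angulin-1, which brings tricellulin to cell corners, stayed within its spread with 341 to 378 CPM in controls and 334 to 384 CPM in Pea3 TKO (0.00, adjusted p = 0.991). Of 15 other plaque proteins Magi3 (0.94 ± 0.17, adjusted p = 0.00422) and Magi2 (1.83 ± 0.57, adjusted p = 0.0427) rose. Ybx3 (Csda), the ZO-1 binding protein ZONAB, fell by 0.50 on the log2 scale (adjusted p = 0.0174). Over these 52 genes 12 rose and 3 fell, against 13.6% and 11.3% of all genes. With the Y-linked covariate 1 rose and 1 fell, where 3.85% and 2.25% of all tested genes did.

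Transcription factors known to switch junction genes on or off in epithelia were examined last. Of 9 tested activators 5 rose and 0 fell, where 13.6% and 11.3% of all tested genes did. With the repressors, 6 of 15 tested factors were called. These became 2 with the Y-linked covariate, where 3.85% of all tested genes rose and 2.25% fell. The epithelial ETS factors Elf3 (1.94 ± 0.25, adjusted p = 0.000765) and Ehf (1.45 ± 0.21, adjusted p = 0.00118) rose. Grhl3, a Grainyhead factor of surface barriers, rose by 1.89 ± 0.34 (adjusted p = 0.00417), from 83.4, 30.4 and 33.6 CPM in controls to 211, 185 and 152 CPM in Pea3 TKO. Ovol1 and Klf5 also rose. Grhl2, which activates Cldn4 in other epithelia, had 121 to 136 CPM in controls and 131 to 162 CPM in Pea3 TKO, with overlap (0.19 ± 0.12, adjusted p = 0.300). Of 6 repressors Zeb2 rose (2.64 ± 0.60, adjusted p = 0.0113), at no more than 1.10 CPM in controls and 3.36 to 5.97 CPM in Pea3 TKO. Snai1 was above every control in all Pea3 TKO samples but missed the threshold (2.28 ± 0.76, adjusted p = 0.0540). Twist2 (2.59, adjusted p = 0.0718), Twist1 (1.98, adjusted p = 0.168), Snai2 (0.10, adjusted p = 0.654) and Zeb1 (0.70, adjusted p = 0.652) did not pass. The median log2 fold change was 2.13 over the 6 repressors and 1.45 over the 9 activators. The repressor median rests on low counts, as all but Snai2 had control means of 0.307 to 0.760 CPM. Twist1 and Twist2 are also among the mesenchyme markers. Summed, the repressors overlapped between groups, at 75.9 to 87.3 CPM in controls and 106, 102 and 76.5 CPM in Pea3 TKO 1 to 3. The activators summed to 389 to 617 CPM in controls and 1039 to 1338 CPM in Pea3 TKO. Zeb1 was at 1.33 CPM in Pea3 TKO 1 and 2 and 0.0587 CPM in Pea3 TKO 3.

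The junction genes were also read against epithelial genes within the same library, in ratios chosen after the values were seen. Relative to Epcam, Cldn4 counts were 0.0380, 0.0261 and 0.0227 in controls and 0.102, 0.111 and 0.108 in Pea3 TKO. The ratios of Cldn7, Cldn6 and F11r to Epcam were higher in every Pea3 TKO sample than in every control too. Relative to Cdh1, Cldn4 counts were 0.0881, 0.0840 and 0.0695 in controls and 0.113, 0.126 and 0.140 in Pea3 TKO, again without overlap. F11r went from 0.467, 0.534 and 0.503 of the Cdh1 counts to 0.334, 0.309 and 0.318. Cldn6 was also lower relative to Cdh1 in every Pea3 TKO sample, at 0.670, 0.657 and 0.627 in controls and 0.594, 0.479 and 0.478 in Pea3 TKO. The exact permutation p was 0.1 for each of these ratios. The ratio of Ocln to Cdh1 counts overlapped between groups, with 0.0926, 0.0303 and 0.0464 in controls and 0.10, 0.0885 and 0.0748 in Pea3 TKO (exact permutation p = 0.3). Stratified epithelium markers rose in 14 of 15 tested cases, where 13.6% of all tested genes rose. Their part in the junction results was not tested.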

How the data were processed

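The deposited files held raw read counts per gene symbol, 1 table per sample, which the authors made by their own alignment and counting; per the labels the notes name bcl2fastq 2.17, STAR 2.5.2b, featureCounts 1.5.0-p3, DESeq and mm10. The annotation and the strand setting are not given in the sources used here. Samples were grouped by title. Genes were kept by filterByExpr of edgeR 4.0.16 (R 4.3.3), which required 0.628 CPM in 3 samples, normalized by TMM and tested by the quasi-likelihood test with group as the only term, with Benjamini-Hochberg adjustment over 13087 genes and a threshold of 0.05. SE is the absolute log2 fold change over the square root of F. Exonic lengths and positions came from GENCODE M21, where 41 of 43 symbols matched and 1 matched as a synonym. One gene of the family is counted but not reported here, and every other gene is accounted for, with values in each sample for those past the threshold and for the 8 highest per kb. From each list up to 3 rises and 3 falls with the smallest adjusted p are given, plus Mpp5, Inadl, Prkci, Prkcz, Scrib, Llgl2, Grhl2, Grhl3, Snai2 and Zeb1. Cdc42, Marveld1, Lsr, Ovol1, Klf5, Snai1, Twist1, Twist2 and Egfl7 were named after their values were seen. The genes and lists were chosen with earlier results of these data known. The script was tested on simulated counts. Alternatives covered DESeq2 1.42.0, other size factors and filters, the replicate number, Y-linked expression and each sample left out. The test on male samples alone was added after seeing the data.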

Additional observations from a re-analysis of the deposited data

How the results depend on the processing

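The 17 called genes kept their direction in all 13 alternatives. With DESeq2, RLE size factors, no low-count filter or a filter of 1 CPM in 3 samples the same 17 passed. The 14 rises became 5 with the Y-linked covariate and 2 with male samples alone, and ranged from 8 to 15 with 1 sample left out, 8 without control 3 and 9 without control 2. The 3 falls became 0 in both sex settings and ranged from 2 to 3 with 1 sample left out. Among the 52 other polarity and junction genes the 12 rises became 1 and the 3 falls became 1 with the Y-linked covariate. Over all tested genes 3.85% rose and 2.25% fell in that setting. With 1 sample left out the rises ranged from 6 to 11 (6 without control 2 or control 3) and the falls from 2 to 4. Rises over all tested genes went from 1783 to 1131 of 13426 without control 2 and to 1149 of 13497 without control 3. They were 1948 of 13376 without control 1 and 1199 to 1586 without a Pea3 TKO sample. The 6 called transcription factors became 2 with the covariate, 1 with males alone, and 6 to 7 with 1 sample left out. The male setting has 4 samples, and the covariate shares part of its variation with genotype; no further cause was tested.

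Values near 0 that did not pass changed sign. Marveld3 was -0.29 in both sex settings, Pard3 -0.0556 with the covariate and -0.0430 in males, and Pard6b -0.105 and -0.0942. With 1 sample left out Marveld3 ranged from -0.22 to 0.23, Pard3 from -0.0105 to 0.10, Pard6g from -0.00497 to 0.16, Cldn9 from -0.29 to 0.71 and Cldn11 from -0.91 to 0.19.

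With the replicate number as a replicate block, 15 genes rose and 2 fell, 16 of the 17 being shared. Over all 13087 tested genes 3191 were called in that setting, and 1769 of them rose. Crb2 lost its call (adjusted p = 0.057) and Cldn23 gained one (adjusted p = 0.00626). Deviations of same-numbered samples correlated at -0.064 to 0.144, and those of differently numbered samples at -0.133 to 0.119. With 3 samples per group and no test, these values cannot decide whether the numbers pair the samples. Counts below 3 per sample cannot be told from 0 at this depth.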
